A study of Mus musculus with 15 samples.

Results

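The p53 pathway was followed through 10 genes: *Trp53*, which encodes p53, its inhibitor *Mdm2*, the p53 targets *Cdkn1a*, *Ccng1*, *Phlda3*, *Bax* and *Bbc3*, and the CDK inhibitors *Cdkn1b*, *Cdkn2a* and *Cdkn2b*. They were taken by symbol from the 35880 genes of the table. All 10 were found, 8 passed the filter on low values, and *Cdkn2a* and *Cdkn2b* were listed at 0 in all 15 samples. Of these 8, *Mdm2* and *Cdkn1b* passed the threshold on adjusted p and size in *KEAP1* KO #2 against LL2 WT, where 13.7% of all genes tested did. *Mdm2*, *Cdkn1a* and *Cdkn1b* passed it in *KEAP1* KO #3, where 13.4% did. In *KEAP1* KO #2, *Cdkn1a* passed by adjusted p but not by size, and *Mdm2* lay close to the threshold. None of the 8 was called between these 2 clones. *KEAP1* KO #1 and *NRF2* KO had 0 of the 8 past the threshold, against 8.54% and 0.464% of all genes.

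The samples were made from LL2/Luc2, a luciferase-marked mouse Lewis lung carcinoma line. The WT genotype is this parental line. The knockouts were made with a plasmid that carried Cas9, GFP and a guide RNA for *Keap1* or *Nfe2l2*, after which single GFP+ cells were sorted and expanded. *KEAP1* KO #1, #2 and #3 are 1 clone each and *NRF2* KO is also 1 clone, so a property of a clone and an effect of its genotype cannot be told apart from within 1 line. RNA of 3 biologic replicates per line was sequenced from untreated cultures in complete medium, and p-values measure the spread between these cultures. KEAP1 marks the transcription factor NRF2 (encoded by *Nfe2l2*) for degradation, and the lines served to ask what changes with NRF2 activity.

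p53 is a transcription factor that DNA damage and other stresses stabilize. It binds pairs of short palindromic half-sites and turns on genes that stop the cell cycle or start apoptosis, and also *Mdm2*, whose protein sends p53 to the proteasome and so closes a feedback loop. CDK inhibitors hold back the kinases that drive the cycle: p21 (*Cdkn1a*) and p27 (*Cdkn1b*) bind CDK2 complexes, while p16 (*Cdkn2a*) and p15 (*Cdkn2b*) bind CDK4 and CDK6. A second product of *Cdkn2a*, p19ARF, holds MDM2 away from p53.

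Values are CPM, the authors' counts scaled to a common total in each sample, so levels are compared between samples and not between genes. Over all genes, the CPM of a sample summed to between 999412 and 999525, and between 17270 and 19750 genes were above 0. *Keap1* averaged 23.0 ± 1.03 CPM (SD, n = 3, as for all means) in LL2 WT, 11.8 ± 0.889 in *KEAP1* KO #1, 5.53 ± 1.57 in #2, 5.58 ± 1.59 in #3 and 22.7 ± 1.78 in *NRF2* KO. *Nqo1*, an NRF2 target, averaged 30.3 ± 5.48 CPM in LL2 WT, lay between 253 and 545 CPM in the 9 *KEAP1* KO samples and averaged 9.82 ± 1.21 CPM in *NRF2* KO. The epithelial markers *Epcam*, *Cdh1* and *Nkx2-1* stayed at or below 0.0618 CPM in every sample, whereas the keratin genes *Krt8* (65.1 to 186 CPM) and *Krt18* (234 to 575 CPM) were high, and the highest value of 4 leukocyte genes was 0.192 CPM. *Sftpc* reached 0.422 CPM and *Krt19* 5.33 CPM. Markers of other cell types differed between lines, each in its own way. With the lines taken in the order LL2 WT, then *KEAP1* KO #1 to #3, then *NRF2* KO, the mesenchymal marker *Vim* averaged 4289, 1853, 1681, 1755 and 3566 CPM, *Fn1* averaged 236, 92.1, 19.9, 22.9 and 164 CPM, and *Cdh2* averaged 6.73, 10.8, 0.351, 11.7 and 10.4 CPM. The endothelial marker *Cdh5* averaged 0.0227, 0.104, 0.819, 1.25 and 0.197 CPM, *Pecam1* averaged 3.08, 3.89, 4.94, 4.50 and 5.54 CPM, and *Kdr* stayed at or below 0.0972 CPM. Of these, *Fn1* and *Cdh5* separated *KEAP1* KO #2 and #3 from the other lines, whereas *Vim* was low in all 3 *KEAP1* KO clones and *Cdh2* in #2 alone. The part of these differences in the results below was not tested. Replicate 3 stood apart from the other 2 replicates in all 5 lines: over 11676 genes, the deviations of the 10 pairs of replicates 3 from their line means correlated with r between 0.422 and 0.631. Calls are therefore also given without the 5 replicates 3.

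The sequences before the start sites show where a p53 half-site occurs, and 4 windows are printed because these genes differed most between lines or hold the longest match. They run from 250 bases before to 50 bases after a RefSeq start (GRCm38.p6, 5′ to 3′ on the gene's strand). Capitals mark the p53 half-sites, the 20-letter p53 sites with at most 1 mismatch, and the core TGACNNNGC of the antioxidant response element, the element that NRF2 binds, on either strand.

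*Cdkn1a*, upstream start, chr17:29090729-29091028, + strand: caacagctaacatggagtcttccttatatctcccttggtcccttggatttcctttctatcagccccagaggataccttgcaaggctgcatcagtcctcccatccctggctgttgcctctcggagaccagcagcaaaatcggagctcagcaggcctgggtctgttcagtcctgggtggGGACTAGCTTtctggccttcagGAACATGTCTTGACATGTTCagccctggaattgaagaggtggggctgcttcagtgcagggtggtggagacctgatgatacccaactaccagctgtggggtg

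*Ccng1*, chr11:40755237-40755536, − strand: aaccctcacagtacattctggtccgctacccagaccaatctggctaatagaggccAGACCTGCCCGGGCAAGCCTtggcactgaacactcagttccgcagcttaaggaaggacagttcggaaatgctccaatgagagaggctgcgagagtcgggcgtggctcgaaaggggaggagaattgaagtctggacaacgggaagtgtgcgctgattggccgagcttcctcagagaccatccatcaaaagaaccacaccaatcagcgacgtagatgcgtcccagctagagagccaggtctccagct

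*Mdm2*, chr10:117710709-117711008, − strand: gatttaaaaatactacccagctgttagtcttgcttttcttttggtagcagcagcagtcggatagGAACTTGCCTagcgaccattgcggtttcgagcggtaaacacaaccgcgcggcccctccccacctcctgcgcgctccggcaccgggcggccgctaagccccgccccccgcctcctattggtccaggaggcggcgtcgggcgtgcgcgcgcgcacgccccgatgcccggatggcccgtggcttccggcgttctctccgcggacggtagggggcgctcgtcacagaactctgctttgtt

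*Cdkn1b*, chr6:134920151-134920450, + strand: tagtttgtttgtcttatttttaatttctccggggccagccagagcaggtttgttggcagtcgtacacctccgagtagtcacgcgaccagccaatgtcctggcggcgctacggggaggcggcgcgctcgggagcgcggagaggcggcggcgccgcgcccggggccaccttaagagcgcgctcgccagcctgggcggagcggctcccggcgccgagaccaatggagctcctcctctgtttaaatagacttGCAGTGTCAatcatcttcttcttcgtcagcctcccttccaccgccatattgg

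All 10 genes matched a RefSeq window, and some have several starts, which gave 14 windows. A p53 half-site was found in 5 of the 10 genes. *Cdkn1a* held 2, at 73 and 51 bases before its upstream start, and the pair made the only full site with a spacer of at most 13 bases among the 10 genes. *Ccng1*, *Mdm2*, *Bax* and *Trp53* held 1 each, at 185, 186, 201 and 75 bases before the start. Of 32851 mouse promoter windows, 8.36% held a half-site and 0.0731% a full site with such a spacer. These shares, and that of the element core below, count single windows. The counts of the 10 genes include a gene if any of its windows matched, so the 2 are not on the same unit. Without a spacer and with 1 mismatch, a 20-letter site was found in *Cdkn1a* (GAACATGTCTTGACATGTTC, 51 bases before the upstream start) and in *Ccng1* (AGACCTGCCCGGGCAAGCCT, 195 bases before the start), and 0.0883% of all windows (29 windows) held such a site with at most 1 mismatch. This last search was added after the windows had been seen, and the matched half-sites overlap it. The other *Cdkn1a* start lies 2790 bases downstream and its window held no half-site. The known p53 sites of *Mdm2* lie in its first intron, outside the window. The element core was found in *Trp53*, *Cdkn1b*, *Cdkn2a* and the downstream window of *Cdkn1a*, and in 12.4% of all windows. The *Cdkn1b* match, GCAGTGTCA on the opposite strand, begins 2 bases before the start. A match is a run of letters, not evidence of binding.

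Differences between lines were tested with limma on log2(CPM + 0.1) over the 14652 genes whose CPM summed to 3 or more across the samples. A call required both an adjusted p (Benjamini-Hochberg) under 0.05 and a log2 fold change beyond 1 in either direction. Fold changes are on this log2 scale, and all comparisons with LL2 WT share its 3 samples. *KEAP1* KO #1 had 0 of the 8 genes called, against 8.54% of all genes tested, and 0 of the 8 had an unadjusted p under 0.05. *KEAP1* KO #2 had 2 (1 higher and 1 lower) against 13.7% of all genes, and *KEAP1* KO #3 had 3 (2 higher and 1 lower) against 13.4%. *NRF2* KO had 0 against 0.464%, with 2 of the 8 (*Mdm2* and *Ccng1*) at an unadjusted p under 0.05. By adjusted p alone, 0, 5, 5 and 0 of the 8 passed in *KEAP1* KO #1, #2 and #3 and *NRF2* KO, where 23.2%, 31.9%, 31.4% and 0.621% of all genes did. With so few genes, these shares are given as a background to read the members against. The median log2 fold change of the 8 genes was 0.15, 0.60, 0.62 and 0.23 in the same order, beside 0.11, 0.029, 0.021 and 0.043 over all genes. In a test for any difference among the 5 lines (moderated F), 4 of the 8, *Mdm2*, *Cdkn1a*, *Cdkn1b* and *Bax*, had an adjusted p under 0.05, against 37.6% of all genes.

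**Figure D1:**
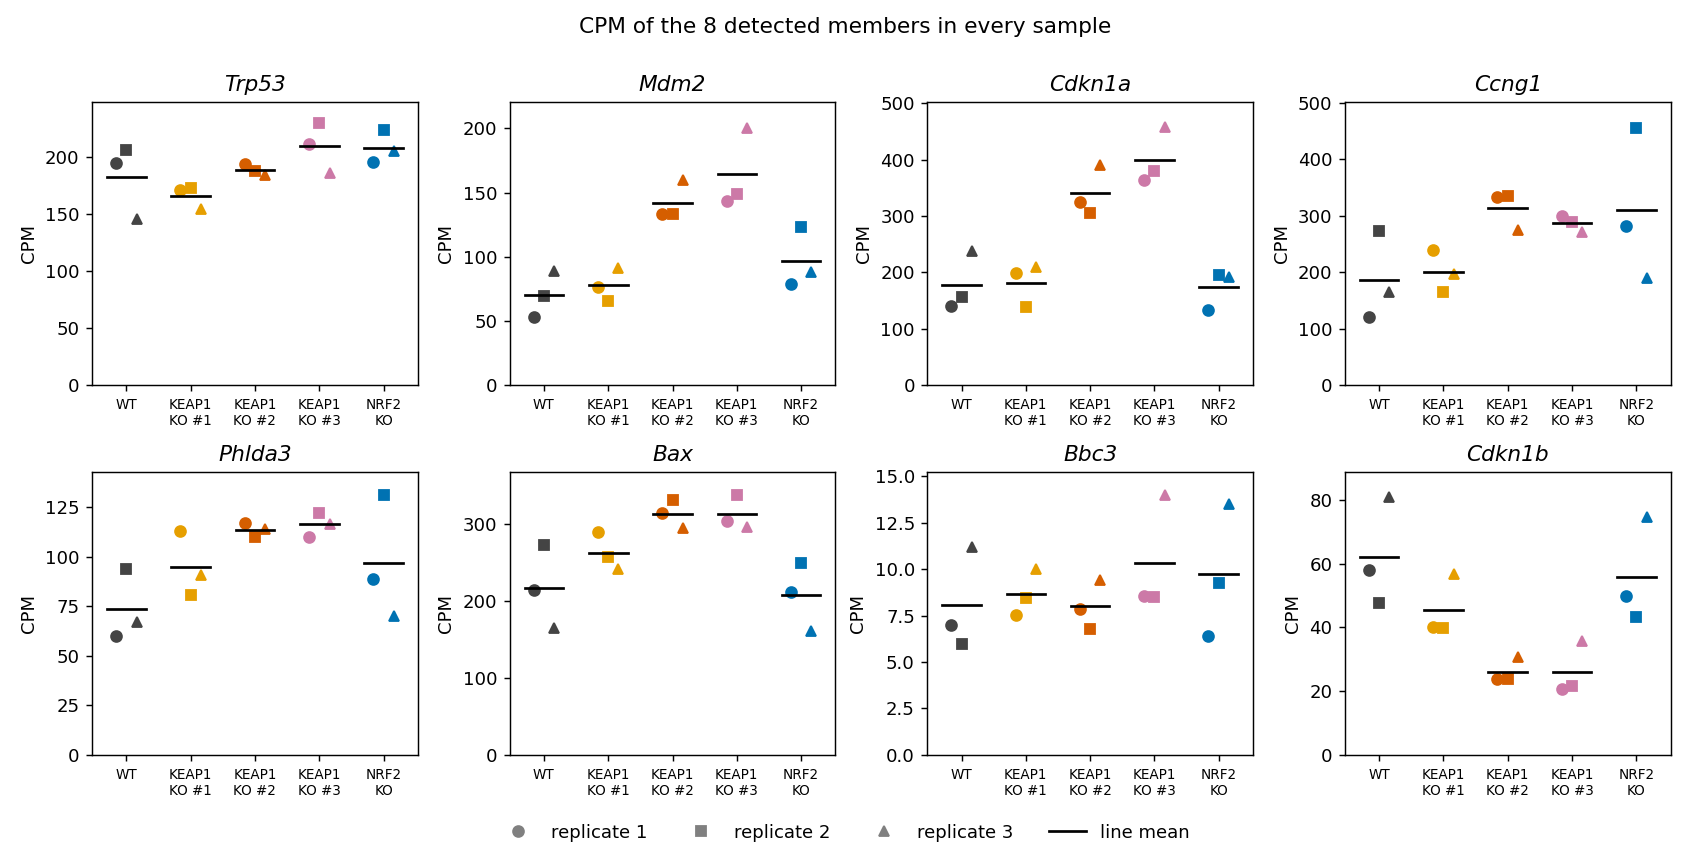
CPM (linear axis from 0) of the 8 detected genes in each of the 15 samples, with 1 panel per gene, the marker shape giving the replicate number and the bar the line mean (n = 3). The *KEAP1* KO #2 and #3 samples of *Mdm2* and *Cdkn1a* lie above every sample of LL2 WT, *KEAP1* KO #1 and *NRF2* KO, and those of *Cdkn1b* lie below.

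*Trp53* (chromosome 11 of GRCm38.p6, 69580348 to 69591873) itself differed little between lines. Replicates 1, 2 and 3 of LL2 WT held 194, 206 and 146 CPM, and those of *KEAP1* KO #1 held 171, 173 and 154 CPM. It was at 194, 188 and 184 CPM in *KEAP1* KO #2, at 212, 230 and 186 CPM in #3, and at 196, 224 and 205 CPM in *NRF2* KO. Each knockout line overlapped with LL2 WT. The log2 fold change was −0.12 (adjusted p = 0.514), 0.068 (0.704), 0.21 (0.206) and 0.21 (0.576) in *KEAP1* KO #1, #2, #3 and *NRF2* KO, with a standard error of 0.12. Of the 31-base stretches of the *Trp53* transcripts, 8.79% also occur in the pseudogene *Trp53-ps*, which averaged 0.0285 CPM. These values are RNA levels. They hold no information on the p53 protein or on variants in its gene.

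*Mdm2* (chromosome 10, 117688875 to 117710758), the ubiquitin ligase that p53 induces and that degrades it, stood in LL2 WT at 53.4, 69.1 and 89.0 CPM. *KEAP1* KO #1 was close to this, at 76.6, 65.8 and 91.2 CPM. It was at 133, 133 and 160 CPM in *KEAP1* KO #2 and at 144, 149 and 201 CPM in #3. In *NRF2* KO it was at 78.5, 123 and 88.2 CPM. All 6 samples of *KEAP1* KO #2 and #3 lay above all 9 samples of the other 3 lines, and the other 3 lines overlapped. *Mdm2* rose 2.05-fold in *KEAP1* KO #2 (log2 fold change 1.04, standard error 0.21, adjusted p = 0.00248) and 2.35-fold in #3 (1.23, adjusted p = 0.000712). It was not called in *NRF2* KO (0.46, adjusted p = 0.441) nor in the first *KEAP1* KO clone (0.16, adjusted p = 0.620). The value in *KEAP1* KO #2 lies close to the threshold. It fell under it without LL2 WT replicate 1 (0.85, adjusted p = 0.0136), without *KEAP1* KO #2 replicate 3 (0.95, adjusted p = 0.0107) and with quantile normalization (0.90, adjusted p = 0.00916). Without the 5 replicates 3 it was 1.13 (adjusted p = 0.00374), and *KEAP1* KO #3 stood at 1.27 (adjusted p = 0.00225).

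*Cdkn1a* (chromosome 17, 29090979 to 29100722), whose product p21 stops the cycle after p53 activation, stood in LL2 WT at 140, 156 and 237 CPM. *KEAP1* KO #1 held 198, 139 and 209 CPM. It was at 325, 305 and 390 CPM in *KEAP1* KO #2 and at 363, 380 and 458 CPM in #3. In *NRF2* KO it was at 134, 195 and 192 CPM. The separation was the one seen for *Mdm2*: *KEAP1* KO #2 and #3 lay above the 9 samples of the other lines, which overlapped. *Cdkn1a* rose 2.3-fold in *KEAP1* KO #3 (log2 fold change 1.2, standard error 0.22, adjusted p = 0.00103). In *KEAP1* KO #2 the log2 fold change of 0.96 passed by adjusted p (0.00450) but not by size. It passed both without LL2 WT replicate 3 (1.19, adjusted p = 0.00112), without *KEAP1* KO #2 replicate 2 (1.04, adjusted p = 0.0107) and without the 5 replicates 3 (1.09, adjusted p = 0.00409). *KEAP1* KO #3 stood at 1.33 (adjusted p = 0.00169) without these 5. The log2 fold change was 0.047 (adjusted p = 0.904) in *KEAP1* KO #1 and −0.016 (adjusted p = 0.990) in *NRF2* KO. The first of these turned negative when the CPM were rescaled by median ratios (−0.058) or quantile normalized (−0.10), and rescaling took the all-gene median of that clone from 0.11 to 0.012. Of the *Cdkn1a* stretches of 31 bases, 9.78% occur in other genes, chiefly *AC167363.2* (6.88%), for which no CPM are listed.

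*Ccng1* (chromosome 11, 40748552 to 40755309) encodes cyclin G1, a p53 target that recruits a phosphatase to MDM2. It varied widely between replicates: LL2 WT was at 121, 273 and 164 CPM, *KEAP1* KO #1 at 239, 164 and 197 CPM, *KEAP1* KO #2 at 333, 334 and 275 CPM, *KEAP1* KO #3 at 300, 289 and 271 CPM and *NRF2* KO at 281, 456 and 190 CPM. *KEAP1* KO #2 lay just above LL2 WT, and the other lines overlapped with it. In *KEAP1* KO #1, #2, #3 and *NRF2* KO its log2 fold changes were 0.17, 0.83, 0.70 and 0.72, and they had a standard error of 0.30 and adjusted p of 0.725, 0.0501, 0.0921 and 0.393. LL2 WT replicate 2 decided the calls. Without it both *KEAP1* KO #2 (1.15, adjusted p = 0.00862) and #3 (1.02, adjusted p = 0.0162) were called.

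*Phlda3* (chromosome 1, 135766085 to 135769134), a p53 target that keeps AKT from the membrane, stood in LL2 WT at 59.7, 93.9 and 67.2 CPM. *KEAP1* KO #1 held 113, 80.8 and 90.9 CPM. It was at 117, 110 and 114 CPM in *KEAP1* KO #2 and at 110, 122 and 117 CPM in #3. In *NRF2* KO it was at 88.5, 131 and 70.1 CPM. *KEAP1* KO #2 and #3 lay above LL2 WT without overlap, and *KEAP1* KO #1 and *NRF2* KO overlapped with it. The log2 fold change was 0.65 (adjusted p = 0.0298) in *KEAP1* KO #2 and 0.68 (adjusted p = 0.0239) in #3, which passes by adjusted p but not by size. The pass was lost in both without the 5 replicates 3 (adjusted p = 0.101 and 0.0861), and in #2 also with no filter (0.0548) and quantile normalization (0.0556). With 1 sample left out, the adjusted p reached 0.117 and 0.0980, both without LL2 WT replicate 1. It was 0.38 (adjusted p = 0.210) in *KEAP1* KO #1 and 0.37 (adjusted p = 0.559) in *NRF2* KO.

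*Bax* and *Bbc3* are the apoptotic members, a pore former of the mitochondrial membrane and the BH3-only protein PUMA. *Bax* (chromosome 7, 45461695 to 45466903) stood in LL2 WT at 215, 273 and 165 CPM. The clones of *KEAP1* KO held 290, 257 and 242 CPM (#1), 315, 332 and 295 CPM (#2) and 305, 339 and 297 CPM (#3), and *NRF2* KO held 212, 250 and 161 CPM. All samples of *KEAP1* KO #2 and #3 lay above LL2 WT. The changes were smaller than for *Mdm2*, at 0.56 (adjusted p = 0.0279) and 0.55 (adjusted p = 0.0287), and neither passed by size. The pass by adjusted p was lost in both clones with no filter (0.0511 and 0.0524), with median-ratio rescaling (0.0516 and 0.0508) and with only 2 lines in the model (0.0828 and 0.0929). With 1 sample left out, the adjusted p reached 0.113 in *KEAP1* KO #2 and 0.115 in #3, both without LL2 WT replicate 3. *KEAP1* KO #1 (0.30, adjusted p = 0.241) and *NRF2* KO (−0.060, adjusted p = 0.933) overlapped with LL2 WT. Of the *Bax* stretches, 11.1% occur in other genes, chiefly *Gm45808*, which was at 0.

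*Bbc3* (chromosome 7, 16308398 to 16318334) was at low levels. LL2 WT held 6.99, 5.98 and 11.2 CPM. The clones of *KEAP1* KO held 7.51, 8.47 and 10.0 CPM (#1), 7.86, 6.78 and 9.41 CPM (#2) and 8.55, 8.52 and 13.98 CPM (#3), and *NRF2* KO held 6.38, 9.28 and 13.5 CPM. Replicate 3 was its highest value in all 5 lines and the lines overlapped. Its log2 fold changes of 0.15, 0.032, 0.37 and 0.25 had a standard error of 0.30 and adjusted p from 0.369 to 0.950.

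*Cdkn1b* (chromosome 6, 134920401 to 134925525), whose product p27 is not a p53 target and holds cells in G1, went the other way. LL2 WT held 58.0, 47.6 and 80.7 CPM. *KEAP1* KO #1 was at 40.0, 39.7 and 56.7 CPM. It was at 23.8, 23.7 and 30.6 CPM in *KEAP1* KO #2 and at 20.5, 21.6 and 35.8 CPM in #3. In *NRF2* KO it was at 49.9, 43.1 and 74.6 CPM. Replicate 3 was the highest in each line, yet all 6 samples of *KEAP1* KO #2 and #3 lay below all 9 of the other lines. *Cdkn1b* was 2.34-fold lower in *KEAP1* KO #2 (log2 fold change −1.23, standard error 0.26, adjusted p = 0.00352) and 2.41-fold lower in #3 (−1.27, adjusted p = 0.00278). It was called in both in each fit that left out 1 sample. Without the 5 replicates 3 it was −1.14 (adjusted p = 0.000248) and −1.32 (adjusted p = 0.000128). *KEAP1* KO #1 was at −0.44 (adjusted p = 0.254) and *NRF2* KO at −0.16 (adjusted p = 0.875), both overlapping with LL2 WT. The value in *KEAP1* KO #1 passed by adjusted p, but not by size, without the 5 replicates 3 (−0.40, adjusted p = 0.0306), with replicate 3 as a term (adjusted p = 0.00365) and with the replicate number as a block (adjusted p = 0.00371), and it was negative within each of the 3 replicate numbers. *KEAP1* KO #1 lay between LL2 WT and the other 2 clones, with a difference of −0.79 (adjusted p = 0.0749) for *KEAP1* KO #2 against #1 and −0.83 (adjusted p = 0.0582) for #3 against #1.

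**Figure D2:**
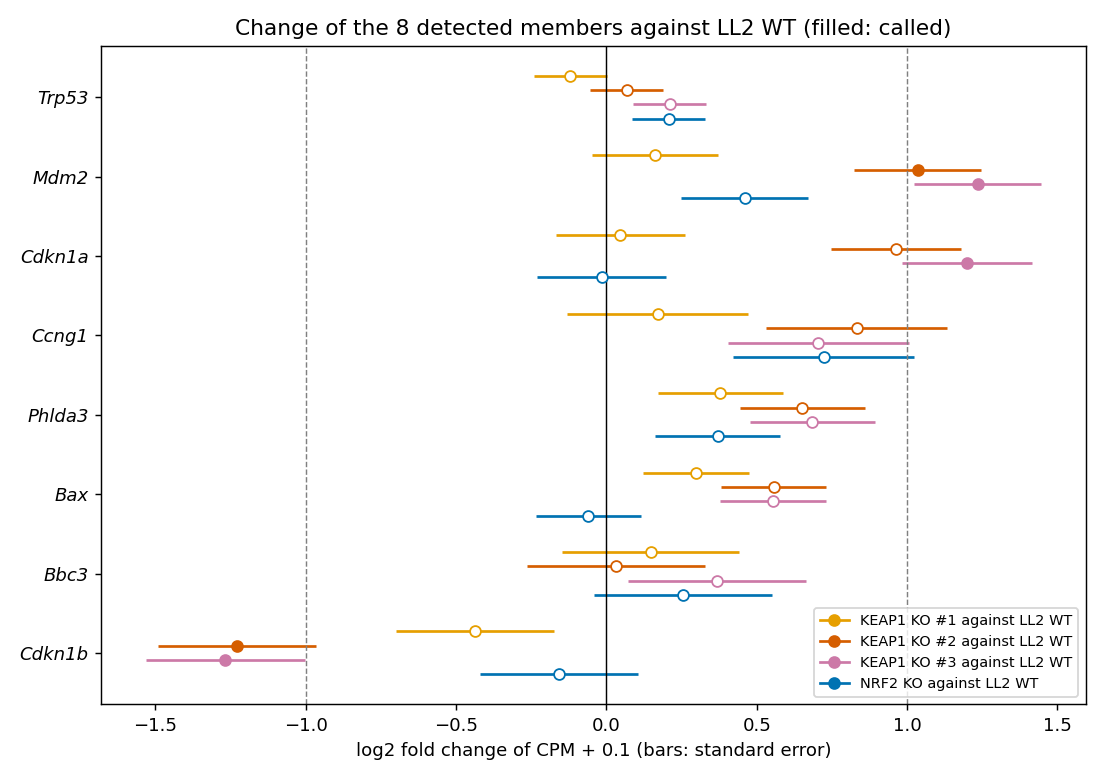
Log2 fold change of CPM + 0.1 against LL2 WT for the 8 detected genes (points, bars ± 1 standard error, filled where called, dashed lines at −1 and 1). *Mdm2* (1.04 and 1.23) and *Cdkn1b* (−1.23 and −1.27) lie beyond a dashed line in *KEAP1* KO #2 and #3, and *Cdkn1a* does so in #3 (1.2).

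The 3 *KEAP1* KO clones were also compared with each other, and these fold changes do not use the LL2 WT samples. Their standard errors and p-values do, because the model estimates 1 spread per gene over all 5 lines. *Mdm2* was higher in *KEAP1* KO #3 than in #1 by 1.07 (adjusted p = 0.00552) and *Cdkn1a* by 1.15 (adjusted p = 0.00431), and both were called, where 4.63% of all genes were. *Mdm2* fell under the threshold without *KEAP1* KO #1 replicate 2 (0.96) or *KEAP1* KO #3 replicate 3 (0.92), and *Cdkn1a* without *KEAP1* KO #1 replicate 2 (0.97). Without the 5 replicates 3 they were 1.04 (adjusted p = 0.0115) and 1.16 (adjusted p = 0.00756). *KEAP1* KO #2 against #1 gave 0.87 (adjusted p = 0.0182) and 0.92 (adjusted p = 0.0159), with 0 of the 8 genes called and 4.58% of all genes. *KEAP1* KO #3 against #2 had 0 of the 8 called, 0 of the 8 at an unadjusted p under 0.05 and 0.485% of all genes called. The differences of 0.20 for *Mdm2*, 0.24 for *Cdkn1a* and −0.039 for *Cdkn1b* had standard errors of 0.21, 0.22 and 0.26. *KEAP1* KO #1 was the clone nearest to LL2 WT in these 3 genes and in *Keap1* RNA. *Nqo1* averaged 476, 276 and 488 CPM in *KEAP1* KO #1, #2 and #3.

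*Cdkn2a* (chromosome 4, 89274473 to 89294619) and *Cdkn2b* (chromosome 4, 89306289 to 89311032), 2 neighbouring genes that many tumors lose or silence, were listed at 0 CPM in all 15 samples. The *Cdkn2a* entry covers both p16 and p19ARF. None of the 31-base stretches of either gene (0%) is shared with another gene. Expression values alone do not tell an absent locus from one that is not transcribed. The nearest gene of at least 1 CPM on average was *Mtap*, a gene of the methionine salvage pathway, 93.4 kb toward lower coordinates, at 75.0 to 167 CPM. Beyond *Mtap*, toward the 2 genes and up to 2000 kb past them, the table holds 12 other genes or pseudogenes. Of these, 5 were at 0 in all samples and the highest single value of the rest was 0.983 CPM. *Klhl9*, 552 kb away, averaged 69.8 CPM. Of 7 neighbours in a list, 5 passed the filter. *Mllt3*, a reader of histone acylation, was called lower in all 3 *KEAP1* KO clones, where it averaged 40.9 ± 6.99, 26.0 ± 3.78 and 28.5 ± 4.52 CPM beside 84.5 ± 22.8 CPM for LL2 WT. *Hacd4*, an enzyme of fatty acid elongation, fell in *KEAP1* KO #2 (−2.55, adjusted p = 0.00174) and #3 (−2.34, adjusted p = 0.00302). It was at low levels, where the added 0.1 CPM weighs on the fold change. LL2 WT averaged 2.17 ± 0.599 CPM, and *KEAP1* KO #1, #2 and #3 averaged 1.34 ± 0.616, 0.313 ± 0.225 and 0.391 ± 0.304 CPM. *NRF2* KO averaged 1.24 ± 0.210 CPM, and its samples also lay below LL2 WT. Among these 5 neighbours, *KEAP1* KO #1 had 1 past the threshold, beside 8.54% of all genes tested. Clone #2 had 2 beside 13.7%, and clone #3 had 2 beside 13.4%. In *NRF2* KO 0 of the 5 were called, and 0 had an unadjusted p under 0.05. Only 0.464% of all genes passed in that line, so a count of 0 among 5 genes does not set the neighbours apart.

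**Figure D3:**
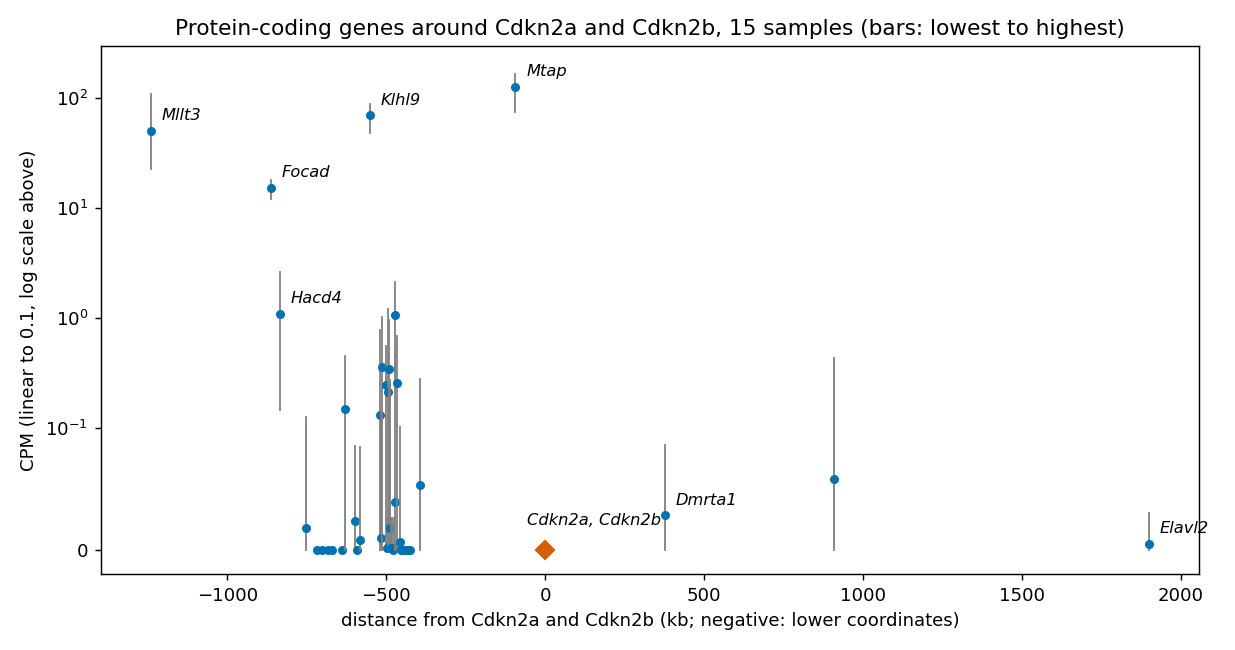
Mean CPM over 15 samples (points, vertical bars from the lowest to the highest sample, axis linear to 0.1 and on a log scale above) of protein-coding genes by distance in kb from *Cdkn2a* and *Cdkn2b* (diamond). Expressed genes lie on the side of lower coordinates only, with *Mtap* at 93.4 kb the nearest.

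Other p53 targets, a list of 34 genes that were all tested, were called in both directions. *KEAP1* KO #1 had 4 higher and 2 lower, *KEAP1* KO #2 had 7 and 3, *KEAP1* KO #3 had 7 and 2, and *NRF2* KO had 0, with 4 of the 34 at an unadjusted p under 0.05. Over all genes, either direction, the shares called in these comparisons were 8.54%, 13.7%, 13.4% and 0.464%. The list's median log2 fold change was 0.25, 0.49, 0.47 and 0.18, beside the 0.11, 0.029, 0.021 and 0.043 of all genes. By adjusted p alone, 14 rose and 3 fell in *KEAP1* KO #2, and 14 rose and 2 fell in #3, where 31.9% and 31.4% of all genes passed. The 4 genes below had the largest changes among those called and averaging at least 1 CPM, and all 4 rose. *Sesn1*, also on the list, fell instead. Its mean was 14.7 CPM for LL2 WT, against 7.12 (clone #1), 4.08 (clone #2) and 5.17 (clone #3). The highest sample of these clones, at 7.93 CPM, was under the lowest LL2 WT sample, at 9.95 CPM. *NRF2* KO, with a mean of 11.6 CPM, overlapped with LL2 WT for this gene.

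*Ephx1*, a microsomal epoxide hydrolase that is also a known NRF2 target, had the largest change of the list. It was at 13.4, 26.2 and 17.8 CPM in LL2 WT, at 172, 95.8 and 152 CPM in *KEAP1* KO #1, at 78.5, 77.3 and 114 CPM in #2 and at 110, 109 and 190 CPM in #3. Its log2 fold change was 2.88 (adjusted p = 5.84e-05), 2.26 (0.000201) and 2.83 (2.97e-05). *Plk2*, a polo-like kinase, was at 6.03, 9.33 and 14.5 CPM in LL2 WT, at 18.2, 21.3 and 24.6 CPM in *KEAP1* KO #1 and between 38.6 and 43.9 CPM in the 6 samples of #2 and #3. It rose in all 3 clones, by 1.17 (adjusted p = 0.0112), 2.13 (0.000132) and 2.15 (0.000114). *Trp53inp1*, which promotes p53 phosphorylation and autophagy, was at 5.78, 9.83 and 17.2 CPM in LL2 WT, at 28.2, 28.1 and 40.7 CPM in *KEAP1* KO #2 and at 38.9, 39.1 and 70.7 CPM in #3. It was called in #2 (1.67, adjusted p = 0.00727) and #3 (2.25, adjusted p = 0.00106) and not in #1 (0.82, adjusted p = 0.164). *Fas*, a death receptor, went from an average of 0.819 ± 0.438 CPM to 2.39 ± 0.739, 2.07 ± 0.805 and 2.88 ± 0.950 CPM in the 3 clones, and was called in each (1.52, 1.31 and 1.78). In *NRF2* KO all 4 overlapped with LL2 WT.

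**Figure D4:**
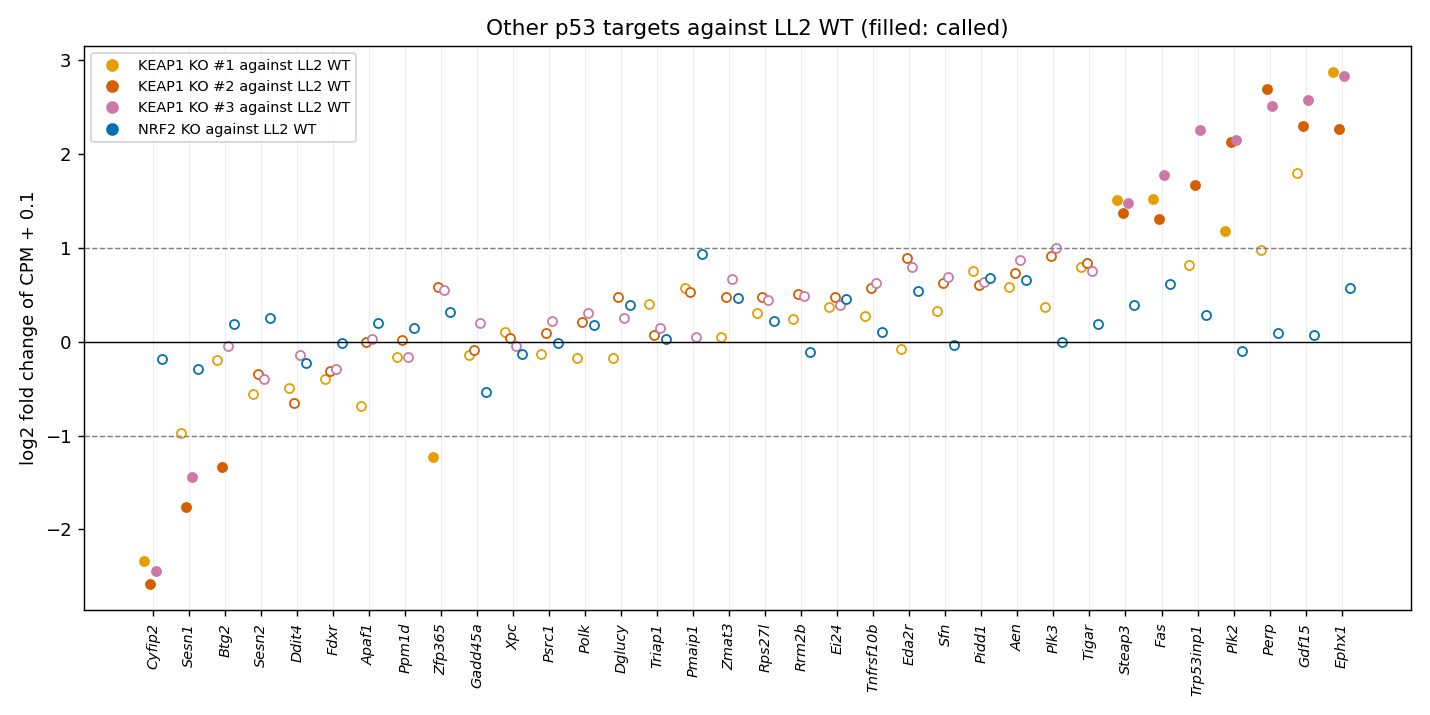
Log2 fold change of CPM + 0.1 against LL2 WT for 34 other p53 targets, ordered by their mean over the 3 *KEAP1* KO clones (points, filled where called, dashed lines at −1 and 1). Called genes lie at both ends, 7 higher in *KEAP1* KO #2 and #3 each and 2 or 3 lower, and no *NRF2* KO point is filled.

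Of 18 listed regulators of p53 and members of its family, 16 were tested. Calls numbered 0, 1, 1 and 0 for *KEAP1* KO #1, #2, #3 and *NRF2* KO. The shares of all genes called were 8.54%, 13.7%, 13.4% and 0.464%. By adjusted p alone the counts were 7, 6, 4 and 0 of the 16, beside 23.2%, 31.9%, 31.4% and 0.621% of all genes. The gene called was *Twist1*, a transcription factor of mesenchymal cells that also restrains p53. It was at 52.0, 52.5 and 73.6 CPM in LL2 WT, at 15.8, 14.8 and 24.2 CPM in *KEAP1* KO #2 and at 19.0, 17.7 and 19.98 CPM in #3. *KEAP1* KO #1, where it was not called, held 38.0, 35.5 and 45.8 CPM. All samples of the *KEAP1* KO clones lay below LL2 WT. *NRF2* KO held 65.0, 62.7 and 76.7 CPM. The log2 fold change of *Twist1* was −1.71 (adjusted p = 2.2e-05) in *KEAP1* KO #2 and −1.63 (adjusted p = 2.93e-05) in #3.

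Among 22 other CDK inhibitors, cyclins, CDKs, RB proteins and E2F factors, 21 were tested. Calls numbered 1, 2, 2 and 0 in the same order of lines, beside 8.54%, 13.7%, 13.4% and 0.464% of all genes. *Cdkn2c*, whose product p18 binds CDK4 and CDK6, stood in LL2 WT at 34.0, 32.3 and 43.3 CPM. *KEAP1* KO #1 held 23.0, 22.7 and 25.3 CPM. It was at 9.28, 8.43 and 11.9 CPM in *KEAP1* KO #2 and at 11.03, 10.72 and 12.26 CPM in #3. It fell in the clones in which *Cdkn1b* fell, with log2 fold changes of −1.88 (adjusted p = 2.39e-06) and −1.67 (adjusted p = 6.49e-06), and *KEAP1* KO #1 lay between (−0.61, adjusted p = 0.0142). *E2f2*, an E2F factor of S phase genes, rose in all 3 clones from an average of 5.18 ± 1.27 CPM to 11.96 ± 1.37, 14.7 ± 0.684 and 11.6 ± 1.40 CPM, or by 1.22 (adjusted p = 0.000339), 1.52 (3.15e-05) and 1.17 (0.000244).

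In the BCL-2 family, 10 of 13 listed genes beside *Bax* and *Bbc3* were tested, and 1, 1, 2 and 0 were called, beside the same shares of all genes. *Bcl2*, the founding inhibitor of apoptosis, was at 17.7, 14.8 and 20.3 CPM in LL2 WT, at 3.59, 2.86 and 5.29 CPM in *KEAP1* KO #2 and at 3.21, 3.26 and 6.11 CPM in #3. It fell by 2.17 on the log2 scale in #2 (adjusted p = 6.64e-05) and by 2.1 in #3 (adjusted p = 8.28e-05). *KEAP1* KO #1 averaged 10.06 ± 1.38 CPM, also below every LL2 WT sample (−0.80, adjusted p = 0.0493). *Bid*, which links death receptors to BAX, went from an average of 10.7 ± 4.56 CPM to 20.7 ± 0.191, 18.6 ± 0.756 and 23.3 ± 0.852 CPM in the 3 clones. *KEAP1* KO #1 (1.04, adjusted p = 0.0124) and #3 (1.21, adjusted p = 0.00354) had it called, and in #2 it passed by adjusted p but not by size (0.89, adjusted p = 0.0203). In *NRF2* KO the unadjusted p was under 0.05 for 2 of the 16 regulators, 1 of the 21 cell cycle genes and 0 of the 10 BCL-2 genes.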

How the data were processed

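RNA of 15 samples (5 lines, 3 biologic replicates each) was measured by sequencing of poly(A)-selected libraries. The authors pseudo-aligned the reads to mouse cDNA with Kallisto and deposited CPM for each gene symbol (read counts brought to the same sum in each library). The paper names GRCm38.p6 and the submitters' processing notes GRCm39. Coordinates and sequences here are GRCm38.p6 from GENCODE and RefSeq and were joined by symbol. The values are fractional, so the depth of each sample is unknown, and no counting interval or floor is given. Samples were grouped by their titles.

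Genes whose CPM summed to 3 or more were kept (14652 of 35880) and tested as log2(CPM + 0.1) with limma 3.58.1 in R 4.3.3 (a mean per line, empirical Bayes with a trend, Benjamini-Hochberg over all genes tested). The procedure was tested on simulated data. The alternatives were other pseudocounts, filters, scalings and models, a replicate block and the removal of each sample. Removing replicate 3 and a term for it were added after seeing the data.

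The genes and lists were chosen with earlier results of these data known. All 10 genes are named. Of the other lists, up to 4 genes are named, those with the largest change among genes called and averaging at least 1 CPM. Outside this rule, *Sesn1* is named as a p53 target that was lower in the *KEAP1* KO clones. Replicate numbers share deviations only in part and were not taken as pairs.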

Additional observations from a re-analysis of the deposited data

Results flagged for a closer look

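Both differences given here separate 2 clones with the same label, and are listed because the effect against LL2 WT differed by a test of the difference itself. *Mdm2* was higher in *KEAP1* KO #3 than in *KEAP1* KO #1 by 1.07 on the log2 scale (adjusted p = 0.00552, all 3 samples above all 3). *Cdkn1a* was higher by 1.15 (adjusted p = 0.00431, all 3 samples above all 3). The clones also differ in *Keap1* RNA (11.8 ± 0.889 CPM in #1 and 5.58 ± 1.59 CPM in #3) and in other genes, such as *Fn1* (92.1 ± 27.8 and 22.9 ± 18.7 CPM). *Nqo1* averaged 476 ± 68.2 CPM in #1 and 488 ± 17.8 CPM in #3. The part of any of these in the 2 differences was not tested.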

How the results depend on the processing

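*Cdkn1b* kept its calls in *KEAP1* KO #2 and #3, and *Mdm2* and *Cdkn1a* theirs in #3, under the 11 other settings and with each of 6 samples left out. With a pseudocount of 1 CPM, the calls over all genes numbered 784 (*KEAP1* KO #1), 1275 (#2), 1303 (#3) and 44 (*NRF2* KO). The *NRF2* KO count of 68 was 38 with a mean of at least 1 CPM, 43 without replicate 3, 173 with replicate 3 as a term, 7 with only the 2 lines in the model, and 30 to 90 with 1 sample left out. Of the listed p53, CDK and BCL-2 genes, 5 instead of 9 were called in *KEAP1* KO #1 with only 2 lines in the model. Quantile normalization left 1 member called in *KEAP1* KO #2 and turned *Trp53* there to −0.082, as did leaving out replicate 3 (−0.067). Median-ratio rescaling gave 1 member called in *KEAP1* KO #2 against #1, and turned *Cdkn1a* in *KEAP1* KO #1 to −0.058 (quantile, −0.10). *Cdkn1a* in *NRF2* KO turned to 0.13 without replicate 3. The causes were not tested.

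With 1 sample left out, called members numbered 1 to 3 in *KEAP1* KO #2 against LL2 WT, 0 to 1 in #2 against #1 and 0 to 2 in #3 against #1. Signs changed for these values, none of them called: in *KEAP1* KO #1, *Mdm2* (−0.023 to 0.35), *Cdkn1a* (−0.11 to 0.27), *Ccng1* (−0.10 to 0.49) and *Bbc3* (−0.040 to 0.41); in *KEAP1* KO #2, *Trp53* (−0.084 to 0.16) and *Bbc3* (−0.15 to 0.29); in *NRF2* KO, *Cdkn1a* (−0.17 to 0.21), *Cdkn1b* (−0.39 to 0.048), *Bax* (−0.24 to 0.12) and *Bbc3* (−0.014 to 0.52).

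With the replicate number as a block, 179 genes were called in *NRF2* KO and the number of members called was the same in each comparison of 2 lines, with 5 instead of 4 in the test over all lines. Same-numbered samples of different lines had a median r of 0.276 between their deviations (30 pairs, −0.0221 to 0.631, 22 over 0.1). For samples with different numbers the median r was −0.192 (60 pairs). Same-numbered samples thus share a pattern, but only in part. The depth of each sample is unknown, which limits what the zeros of *Cdkn2a* and *Cdkn2b* show.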
